A study of Homo sapiens with 4 samples.

Results

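The genes of glycolysis and the hypoxia response described here were chosen by name, and number 39 of the 23228 gene symbols in the count files. The core set of 20 comprised 16 glycolytic enzymes and 4 transporters of glucose or lactate. The hypoxia-response set of 19 comprised kinases that steer glycolytic flux, HIF target genes, oxygen sensors and the HIF subunits themselves. All 39 symbols were found in every file. RNA came from A673, a line from an Ewing sarcoma with an EWS-FLI1 fusion, kept in Iscove's medium with 10% serum, 10 µg/ml insulin and 55 µM beta-mercaptoethanol under 5% CO2. The oxygen level is not given in the labels. Cells received lipid-transfected siRNA for 48 h. The groups were siSMPD1 (siRNA against SMPD1, the gene of acid sphingomyelinase) with its scrambled-siRNA control, called control_SMPD1, and siGPR64 (siRNA against GPR64, an adhesion G protein-coupled receptor now named ADGRG2) with its scrambled-siRNA control, called control_GPR64. Each group is 1 library from this single line, so no difference within a pair has a replicate check or a p-value.

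Glycolysis breaks glucose down to pyruvate in the cytosol, and lactate dehydrogenase turns pyruvate into lactate, which leaves the cell through monocarboxylate transporters. Many genes of this route are also targets of the hypoxia-inducible factors (HIF), dimers of an oxygen-labile alpha subunit (HIF1A or EPAS1) and a stable partner (ARNT or ARNT2). When oxygen is present, prolyl hydroxylases of the EGLN family mark the alpha subunit for degradation through VHL, so HIF activity is set mainly by protein stability and not by the mRNA of the subunits.

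Gene counts summed to 18849264 in siSMPD1 and 19614913 in control_SMPD1, but to 2534861 in siGPR64 and 2882854 in control_GPR64. Levels are given in CPM of gene counts after TMM scaling. Ratios carry a 95% interval in brackets that covers counting error alone. A gene was called higher or lower by a rule of size: at least 2-fold, a mean of at least 1 CPM in the pair, and an interval that excludes equality. Whether a gene can pass thus depends on its counts. The shares of all measured genes given beside the members were not matched to them by level. A count of 0 allows up to 0.159 CPM in siSMPD1 and 0.156 CPM in control_SMPD1, but up to 1.18 CPM in siGPR64 and 1.03 CPM in control_GPR64. SMPD1 stood at 91.7 CPM in siSMPD1 and 414 CPM in control_SMPD1, and GPR64 at 50.1 CPM in siGPR64 and 109 CPM in control_GPR64. SMPD1 was at 232 CPM in siGPR64 and 52.8 CPM in control_GPR64, so the library labelled control_GPR64 held less SMPD1 RNA than siSMPD1 did. GPR64 was at 539 CPM in siSMPD1 and 388 CPM in control_SMPD1, so control_GPR64 also held less GPR64 RNA than the other control. Every comparison across the pairs carries these gaps. The SMPD1 gap also lies within the GPR64 pair, so siGPR64 and control_GPR64 differ in SMPD1 RNA as well as in GPR64 RNA. Of 9 Ewing sarcoma markers 8 reached 1 CPM in every library, with CD99 listed at 0. Of 11 skeletal muscle markers, the tissue the labels name, PAX7 alone did so, and MYOD1 and MYOG were listed at 0. In bulk RNA, fewer cells with a transcript and less of it per cell cannot be told apart.

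Promoter sequence is shown for members that differed at least 2-fold in the same direction from both control libraries and that have a window in the RefSeq promoter table (GRCh38.p14). These are the HIF targets SLC16A3, ALDOC, BNIP3, PDK1 and P4HA2, of which SLC16A3 was higher in siSMPD1 and the others were lower in siGPR64. The windows hold the 250 bases before a RefSeq transcription start, read 5′ to 3′ on the gene's strand. SLC16A3 lies at chr17:82228792-82229041, plus strand, ALDOC at chr17:28576896-28577145, minus strand, BNIP3 at chr10:131981924-131982173, minus strand, PDK1 at chr2:172555840-172556089, plus strand and P4HA2 at chr5:132227092-132227341, minus strand. For SLC16A3 and PDK1, which have 5 and 2 listed starts, the window with most matches is printed. Capitals mark ACGTG, the core of the HIF binding motif, or CACGT, the same letters on the other strand.
SLC16A3: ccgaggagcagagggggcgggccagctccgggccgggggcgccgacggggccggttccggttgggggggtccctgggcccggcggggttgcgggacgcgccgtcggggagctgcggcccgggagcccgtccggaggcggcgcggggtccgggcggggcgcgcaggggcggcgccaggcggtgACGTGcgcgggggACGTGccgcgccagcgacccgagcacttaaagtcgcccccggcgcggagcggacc
ALDOC: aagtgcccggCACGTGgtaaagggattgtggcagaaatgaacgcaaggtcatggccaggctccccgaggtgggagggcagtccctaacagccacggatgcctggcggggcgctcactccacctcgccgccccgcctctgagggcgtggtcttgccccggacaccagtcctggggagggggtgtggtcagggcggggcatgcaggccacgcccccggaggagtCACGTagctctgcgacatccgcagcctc
BNIP3: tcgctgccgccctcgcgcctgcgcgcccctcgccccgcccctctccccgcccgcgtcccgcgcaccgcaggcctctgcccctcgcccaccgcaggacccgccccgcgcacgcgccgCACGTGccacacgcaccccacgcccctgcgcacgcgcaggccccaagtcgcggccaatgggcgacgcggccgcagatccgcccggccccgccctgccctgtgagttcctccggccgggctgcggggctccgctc
PDK1: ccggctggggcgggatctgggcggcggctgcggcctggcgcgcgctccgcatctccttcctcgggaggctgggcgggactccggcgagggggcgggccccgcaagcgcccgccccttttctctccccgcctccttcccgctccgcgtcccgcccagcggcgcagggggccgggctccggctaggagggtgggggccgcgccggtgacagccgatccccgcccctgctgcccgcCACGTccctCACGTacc
P4HA2: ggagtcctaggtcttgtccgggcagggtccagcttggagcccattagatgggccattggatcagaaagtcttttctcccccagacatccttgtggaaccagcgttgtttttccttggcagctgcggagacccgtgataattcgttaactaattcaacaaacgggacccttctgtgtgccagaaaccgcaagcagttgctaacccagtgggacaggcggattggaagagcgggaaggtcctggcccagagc

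The ALDOC window held 3 matches, and those of SLC16A3, BNIP3 and PDK1 held 2 each, while the P4HA2 window held none. In ALDOC and BNIP3, 2 of the matches overlap as the palindrome CACGTG, which basic helix-loop-helix factors other than HIF also bind. Windows were found for 34 of the 39 members, and SLC2A3, SLC16A1, BNIP3L, NDRG1 and ARNT2 have none. Of the 62 windows of members, 23 (37.1%) held at least 1 match on either strand, against 18.5% of 35116 windows of all genes. Counted by gene, 20 of the 34 members (58.8%) held a match in at least 1 window, against 21.7% of all genes. A gene with more listed starts has more chances of a match. Members had 62 windows for 34 genes, while all genes had 35116 windows for 27305 genes. The shares by gene were not adjusted for this, and the members were chosen by name. Neither the shares by window nor those by gene were matched for base content or expression level, so the excess over all genes was not tested as a trait of HIF targets. The sets differ in order by the way of counting. Hypoxia-response members held a match in 40.0% of windows and 8 of 16 genes, and core members in 35.7% of windows and 12 of 18 genes. LDHA had the highest number of matches in a window of any member, at 5, and HK2 had 4. Members with no match in any window included ENO1, HK1, SLC2A1, ADM and KDM3A. A match describes these letters only and was not tested as a binding site.

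The core set took a slightly larger share of counts than its control in both pairs, although in siGPR64 10 core members lay above control_GPR64 and 10 below it. The 20 core members held 1.43% of gene counts in siSMPD1 (1.42 to 1.43) and 1.35% in control_SMPD1 (1.34 to 1.35). They held 1.21% in siGPR64 (1.19 to 1.22) and 1.15% in control_GPR64 (1.14 to 1.16). The siGPR64 share of gene counts was below that of control_SMPD1. With the HTSeq summary lines, which hold reads given to no gene, also in the denominator the order turned. The core share was then 0.766% in siGPR64 and 0.744% in control_SMPD1. GAPDH and ENO1 made up 44.5% to 47.9% of the core counts. The 19 hypoxia-response members held 0.126% of gene counts in siSMPD1 (0.124 to 0.128) and 0.104% in control_SMPD1 (0.103 to 0.106). In the GPR64 pair the order was the other way round, with 0.0721% in siGPR64 (0.0688 to 0.0755) and 0.0854% in control_GPR64 (0.0821 to 0.0888). All intervals are exact Clopper-Pearson intervals.

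Per kilobase of annotated exon, GAPDH, ENO1, LDHB and ALDOA were, in that order, the members with the highest levels in each of the 4 libraries. GAPDH reached 1705 CPM per kilobase in siSMPD1 and 1645 in control_SMPD1, and 1259 in siGPR64 and 1373 in control_GPR64. GENCODE 29 names 62 GAPDH pseudogenes, and reads with more than 1 alignment do not enter the counts, so the level of GAPDH is uncertain. Reads not uniquely aligned were 29.1% of entries in siSMPD1 and 30.1% in control_SMPD1, but 20.1% in siGPR64 and 21.4% in control_GPR64. At the low end, EPAS1, the second HIF alpha subunit, had 3 counts in siSMPD1 and 4 in control_SMPD1, and 0 counts in siGPR64 and 1 in control_GPR64. It was too low for any ratio. CA9, a carbonic anhydrase at the cell surface and a sensitive HIF target, stood at 4.35 CPM in siSMPD1 and 4.32 CPM in control_SMPD1, and had 1 count in siGPR64 and 2 in control_GPR64. The HIF-inducible ADM, EGLN3 and ANKRD37 were likewise below 10 CPM in every library. The plot of member levels by library shows this spread.

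**Figure D1:**
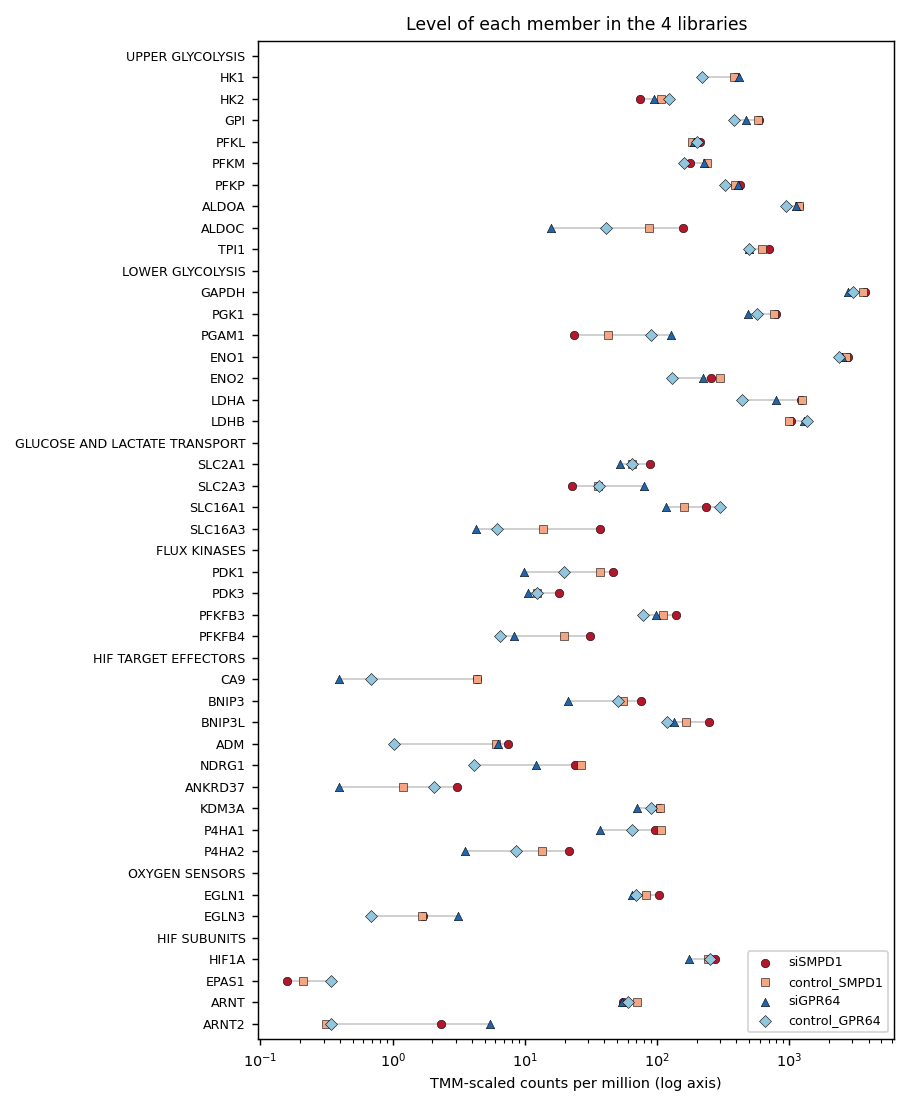
TMM-scaled CPM of the 39 members (log axis) in siSMPD1, control_SMPD1, siGPR64 and control_GPR64, 1 point per library, grouped by role. The points of GAPDH, ENO1 and ALDOA lie close together while those of ALDOC, SLC16A3, PDK1, BNIP3 and P4HA2 spread, each highest in siSMPD1 and lowest in siGPR64. The siGPR64 value of EPAS1 is 0 and is not drawn.

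The first comparison asked how these genes differ when SMPD1 is silenced. The median of the core set lay near its control level, while hypoxia-response genes lay mostly slightly above theirs. By the rule of size 3 of 38 measured members were higher (SLC16A3, ANKRD37 and ARNT2), against 2.49% of all 12749 measured genes, and none was lower, against 1.11%. The share called in either direction was 7.89% of members and 3.6% of measured genes. EPAS1 was not measured, with a mean under 1 CPM. Of the 20 core members 12 lay within 1.2-fold of control_SMPD1. The share of all measured genes within that range was not computed, so this count does not set the core set apart. The median log2 ratio was 0.05 over core members and 0.32 over 18 hypoxia-response members, against -0.00 over all measured genes. The interval lay above equality for 11 of the 18 and below it for 2, where 28.1% and 28.8% of measured genes did so.

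SLC16A3 encodes MCT4, the low-affinity exporter of lactate in glycolytic cells. It stood at 37 CPM in siSMPD1 and 13.7 CPM in control_SMPD1, 2.7-fold higher (2.34 to 3.13). Against control_GPR64 it passed 2-fold as well, with a log2 ratio of 2.58. SLC16A1 encodes MCT1, the high-affinity lactate transporter, and stood at 234 CPM in siSMPD1 and 161 CPM in control_SMPD1, a ratio of 1.45-fold (1.38 to 1.52). Against control_GPR64 its log2 ratio was -0.37 (-0.47 to -0.26), so its direction depends on the control library. SLC2A1, the widely expressed glucose transporter GLUT1, stood at 88.2 CPM in siSMPD1 and 64.8 CPM in control_SMPD1, a ratio of 1.36-fold (1.27 to 1.47). SLC2A3, the high-affinity glucose transporter GLUT3, lay the other way at 22.7 CPM in siSMPD1 and 35.7 CPM in control_SMPD1, 1.57-fold lower (1.39 to 1.78). Of the 4 transporters, 1 thus passed the rule (2.49% of all measured genes were higher). Over control_SMPD1, both lactate transporters and GLUT1 had intervals above equality (28.1% of all measured genes).

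Among the enzymes, none passed the rule in siSMPD1. ALDOC, the brain-type aldolase, came closest on the higher side at 157 CPM in siSMPD1 and 87.7 CPM in control_SMPD1, 1.79-fold higher (1.69 to 1.9). PGAM1, phosphoglycerate mutase, came closest on the lower side at 23.6 CPM in siSMPD1 and 42.8 CPM in control_SMPD1, 1.81-fold lower (1.61 to 2.04). GENCODE 29 names 13 PGAM1 pseudogenes, and reads with more than 1 alignment do not enter the counts, so the level of PGAM1 is uncertain. HK2, the inducible hexokinase, was 1.45-fold lower (1.35 to 1.55) and PFKM, the muscle-type phosphofructokinase, 1.33-fold lower (1.28 to 1.39). Against control_GPR64 HK2 was also lower, at a log2 ratio of -0.74. PFKM had one of 0.15 there, so its direction depends on the control library. GAPDH, PGK1, ENO1, LDHA, LDHB, ALDOA, GPI and HK1 differed from their control by at most 1.04-fold, while TPI1 was 1.13-fold higher (1.1 to 1.16) and PFKL 1.15-fold higher (1.1 to 1.2).

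All 4 kinases of flux control had intervals above equality in siSMPD1, as did 28.1% of all measured genes, and none reached 2-fold. PDK1 and PDK3 phosphorylate and inhibit pyruvate dehydrogenase, and PFKFB3 and PFKFB4 set the level of fructose 2,6-bisphosphate, an activator of phosphofructokinase. PFKFB4 stood at 31 CPM in siSMPD1 and 19.8 CPM in control_SMPD1, a ratio of 1.57-fold (1.38 to 1.79). PDK3 stood at 18 CPM in siSMPD1 and 12.3 CPM in control_SMPD1, a ratio of 1.46-fold (1.23 to 1.73), and the ratios of PDK1 and PFKFB3 were 1.26-fold (1.14 to 1.39) and 1.25-fold (1.18 to 1.32). Among HIF target effectors the ankyrin repeat gene ANKRD37 passed the rule at 3.07 CPM in siSMPD1 and 1.2 CPM in control_SMPD1, 2.53-fold higher (1.56 to 4.36), on 58 counts in siSMPD1 and 23 in control_SMPD1. Against control_GPR64 its log2 ratio was 0.57, with an interval that holds 0. The mitophagy receptors BNIP3 and BNIP3L stood 1.38-fold higher (1.27 to 1.49) and 1.49-fold higher (1.42 to 1.56). P4HA2, a collagen prolyl hydroxylase, was 1.58-fold higher (1.35 to 1.86), while its paralog P4HA1 was 1.11-fold lower (1.04 to 1.19). Against control_GPR64 P4HA1 had a log2 ratio of 0.56, so the direction of P4HA1 depends on the control library. CA9, ADM, NDRG1 and the histone demethylase gene KDM3A had intervals that hold equality.

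The subunit transcripts differed unequally. HIF1A stood at 277 CPM in siSMPD1 and 242 CPM in control_SMPD1, a ratio of 1.14-fold (1.1 to 1.19). ARNT, its usual partner, stood at 55 CPM in siSMPD1 and 70.3 CPM in control_SMPD1, 1.28-fold lower (1.18 to 1.39). ARNT2, the partner used mainly in neural tissue, had 44 counts in siSMPD1 and 6 in control_SMPD1, 6.96-fold higher (3.17 to 21.4). Its log2 ratio against control_GPR64 was 2.61, on 1 count in that control. EGLN1, the main HIF prolyl hydroxylase, had a ratio of 1.26-fold (1.18 to 1.35). Of the 3 members past the rule, SLC16A3 and ARNT2 were thus higher against both controls, a pattern shown by 1.37% of measured genes in that direction and 2.01% in either. As control_GPR64 held less SMPD1 RNA than siSMPD1, the comparison with it cannot check an effect of SMPD1 silencing. No member was lower against both (0.635% of measured genes). Against control_GPR64 alone 11 of 38 members were higher in siSMPD1 (10.5% of measured genes) and 1, PGAM1, was lower (8.02%), which is 31.6% of members and 18.5% of genes in either direction.

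**Figure D2:**
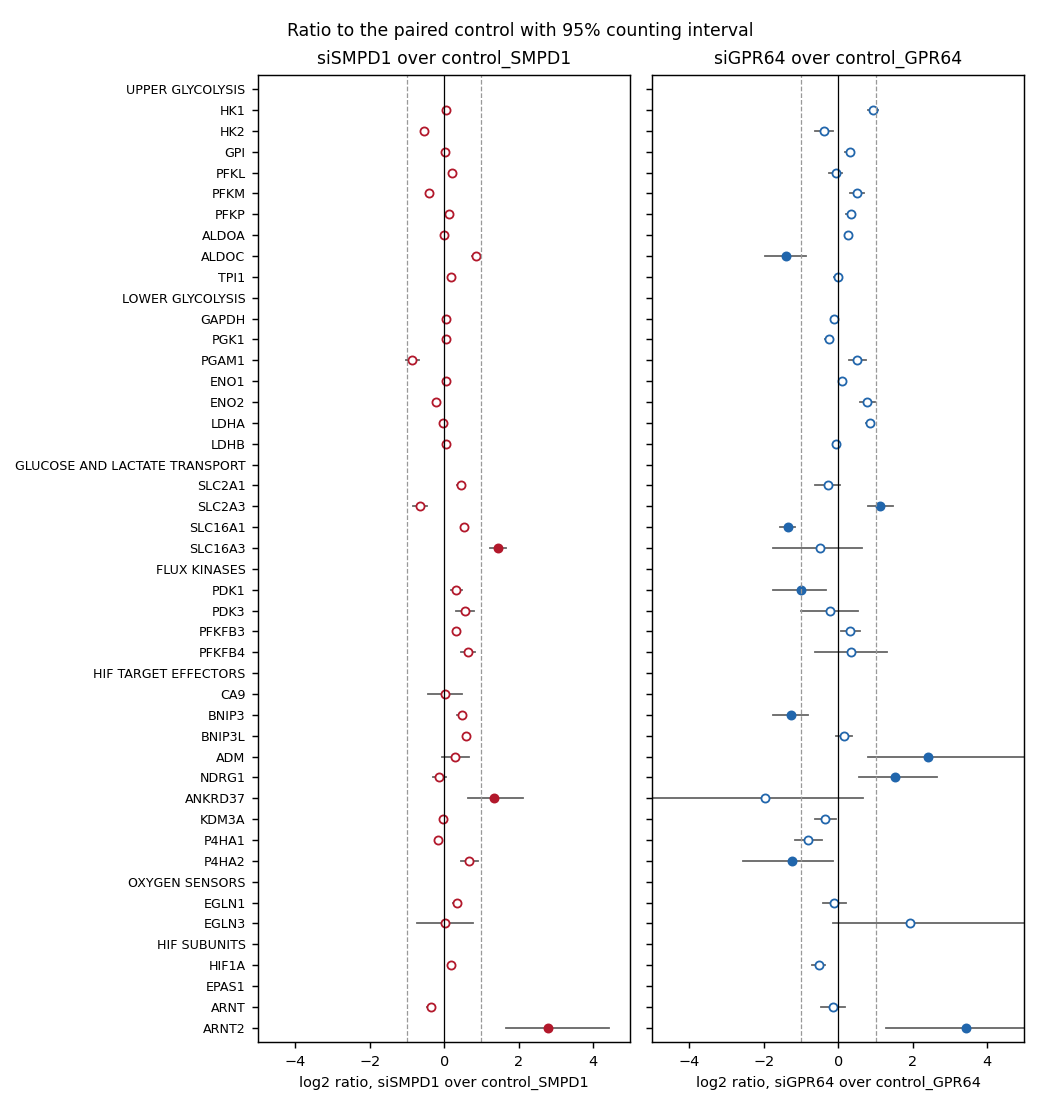
Log2 ratio of each measured member with its 95% counting interval, siSMPD1 over control_SMPD1 on the left and siGPR64 over control_GPR64 on the right; filled points pass the rule of size and dashed lines mark 2-fold. On the left 3 members pass, all higher, and on the right 4 higher and 5 lower members pass; intervals are cut at the axis limits.

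The second comparison asked how the same genes differ between siGPR64 and control_GPR64, libraries that also differ in SMPD1 RNA. Members differed in both directions: ALDOC, SLC16A1, PDK1, BNIP3 and P4HA2 were lower and SLC2A3, ADM, NDRG1 and ARNT2 were higher. These are 5 of 37 measured members lower, against 5.18% of all 12830 measured genes, and 4 higher, against 6.56%. EPAS1 and CA9 were not measured. The share called in either direction was 24.3% of members and 11.7% of measured genes. The median log2 ratio was 0.05 over 20 core members and -0.14 over 17 hypoxia-response members, against 0.01 over all measured genes. The interval lay above equality for 4 of the 17 and below it for 6, where 22.2% and 20.2% of measured genes did so. Against control_SMPD1 as well, 4 members were at least 2-fold lower (ALDOC, PDK1, BNIP3 and P4HA2) and 2 higher (SLC2A3 and ARNT2). Among all measured genes 1.89% and 1.53% did so, 3.42% in either direction. Against control_SMPD1 alone 9 of 37 members were lower in siGPR64 (5.25% of measured genes) and 3 were higher (6.18%), which is 32.4% of members and 11.4% of genes in either direction.

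In siGPR64 a glucose transporter gene was higher and a lactate transporter gene lower. SLC2A3 stood at 80.3 CPM in siGPR64 and 36.7 CPM in control_GPR64, 2.19-fold higher (1.73 to 2.79), with a log2 ratio of 1.17 against control_SMPD1. SLC2A1 stood at 52.9 CPM in siGPR64 and 64.4 CPM in control_GPR64, 1.22-fold lower (0.971 to 1.53), an interval that holds equality. SLC16A1 stood at 117 CPM in siGPR64 and 301 CPM in control_GPR64, 2.57-fold lower (2.25 to 2.94). Its level in control_GPR64 was the highest of the 4 libraries, and against control_SMPD1 the log2 ratio was -0.46, short of 2-fold. SLC16A3 had 11 counts in siGPR64 and 18 in control_GPR64, 1.41-fold lower (0.64 to 3.35), which shows no direction at this depth.

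ALDOC was the enzyme past the rule in siGPR64, at 15.7 CPM in siGPR64 and 41.4 CPM in control_GPR64, 2.63-fold lower (1.84 to 3.88). Against control_SMPD1 its log2 ratio was -2.48. The intervals of 9 other enzymes lay above equality, all short of 2-fold, with ratios of 1.07-fold for ENO1 to 1.91-fold for HK1. HK1, the constitutive hexokinase, stood at 416 CPM in siGPR64 and 218 CPM in control_GPR64, 1.91-fold higher (1.73 to 2.11). LDHA, the lactate dehydrogenase subunit favoured in glycolytic cells, stood at 801 CPM in siGPR64 and 443 CPM in control_GPR64, 1.81-fold higher (1.68 to 1.94), and ENO2, the neuronal enolase, was 1.72-fold higher (1.51 to 1.96). Against control_SMPD1, however, LDHA and ENO2 had log2 ratios of -0.64 and -0.43, and GPI, ALDOA and ENO1 of -0.30, -0.07 and -0.08. All these intervals lay below equality, so the direction of these enzymes depends on the control library. The intervals of HK1, at a log2 ratio of 0.13, and PGAM1, at 1.58, lay above equality there. Those of PFKM and PFKP held it. GAPDH at 1.09-fold lower (1.06 to 1.13), PGK1 at 1.18-fold lower (1.1 to 1.27) and LDHB at 1.05-fold lower (1.0 to 1.1) were close to their control. PGAM1 differed more between the pairs than within them, at 23.6 CPM in siSMPD1, 42.8 CPM in control_SMPD1, 128 CPM in siGPR64 and 89.7 CPM in control_GPR64. HK2, GPI and PFKP had ratios of 1.31-fold lower (1.11 to 1.55), 1.23-fold higher (1.14 to 1.34) and 1.26-fold higher (1.15 to 1.37).

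PDK1 stood at 9.79 CPM in siGPR64 and 19.9 CPM in control_GPR64, 2.01-fold lower (1.25 to 3.38), and at a log2 ratio of -1.93 against control_SMPD1. Its call rests on 25 counts in siGPR64 and 58 in control_GPR64, at the edge of the 2-fold rule. PDK3, PFKFB3 and PFKFB4 did not pass, at 1.16-fold lower (0.688 to 2.0), 1.25-fold higher (1.04 to 1.51) and 1.26-fold higher (0.647 to 2.49). BNIP3 stood at 21.2 CPM in siGPR64 and 51 CPM in control_GPR64, 2.4-fold lower (1.76 to 3.36), while BNIP3L had a ratio of 1.12-fold (0.96 to 1.3). GENCODE 29 names 39 BNIP3 pseudogenes, so reads with more than 1 alignment may be missing from its level, which was not tested. P4HA2 had 9 counts in siGPR64 and 25 in control_GPR64, 2.36-fold lower (1.1 to 5.91). P4HA1 stood at 37.2 CPM in siGPR64 and 65.1 CPM in control_GPR64, 1.75-fold lower (1.36 to 2.26), with a log2 ratio of -1.52 against control_SMPD1. P4HA2 shares exon sequence with an antisense gene, P4HA2-AS1, in GENCODE 29, and ALDOC, SLC16A3, PDK1, PFKM, HIF1A and ARNT2 likewise overlap genes on the other strand. The strand setting of the counts is not given, so reads of such partners cannot be told apart.

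The effector genes ADM and NDRG1, higher in siGPR64, were not so against the other control. ADM, which encodes the vasodilator peptide adrenomedullin, had 16 counts in siGPR64 and 3 in control_GPR64, 5.33-fold higher (1.75 to 32.7), but a log2 ratio of 0.04 against control_SMPD1. NDRG1, a stress-responsive metastasis suppressor, stood at 12.1 CPM in siGPR64 and 4.11 CPM in control_GPR64, 2.87-fold higher (1.48 to 6.32), but was lower than control_SMPD1 with a log2 ratio of -1.12. ADM and NDRG1 had their lowest levels of the 4 libraries in control_GPR64. ARNT2 had 14 counts in siGPR64 and 1 in control_GPR64, 10.8-fold higher (2.44 to 677), and its log2 ratio against control_SMPD1 was 3.95. HIF1A stood at 175 CPM in siGPR64 and 252 CPM in control_GPR64, 1.44-fold lower (1.28 to 1.62), with a log2 ratio of -0.47 against control_SMPD1. ARNT and EGLN1 had intervals that hold equality. EGLN3, the HIF-inducible hydroxylase, had 8 counts in siGPR64 and 2 in control_GPR64, and ANKRD37 had 1 in siGPR64 and 6 in control_GPR64, both too few to show a direction. KDM3A was 1.27-fold lower (1.05 to 1.55).

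**Figure D3:**
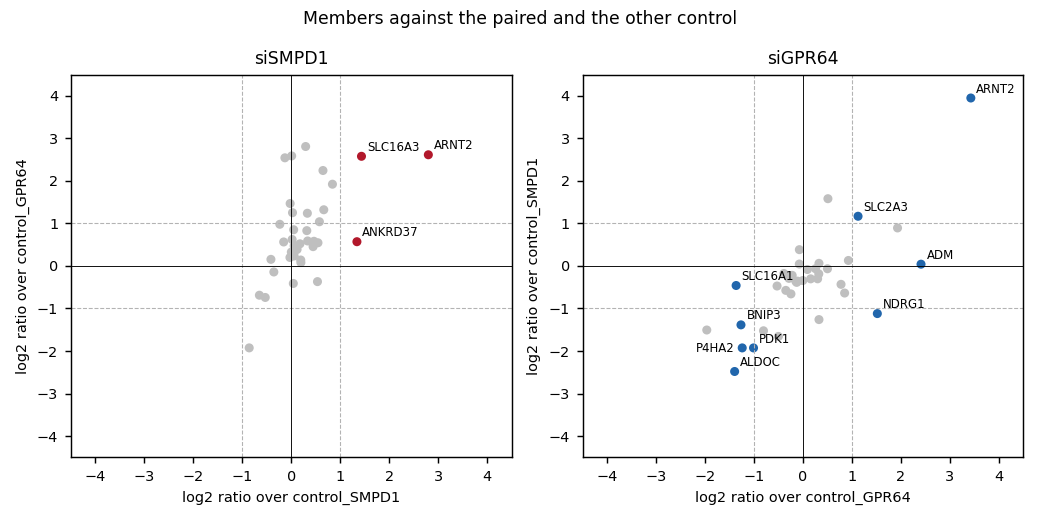
Log2 ratio of each measured member over its paired control (horizontal) and over the other control (vertical), siSMPD1 on the left and siGPR64 on the right; coloured, named points pass the rule of size against the paired control and dashed lines mark 2-fold. Of the named points, SLC16A3 and ARNT2 on the left, and ARNT2, SLC2A3, BNIP3, PDK1, P4HA2 and ALDOC on the right, lie beyond 2-fold on both axes, while NDRG1 changes sign.

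The pairs share no library, so values of a gene in both can be set side by side. The 5 members lower in siGPR64 all had intervals above equality in siSMPD1 over control_SMPD1, with ratios of 1.26-fold for PDK1 to 1.79-fold for ALDOC. Of all 608 genes that were lower in siGPR64 and measured in both pairs, 22.4% had such an interval, and of all measured genes 28.1%. Over control_GPR64, SLC16A1 was lower in siSMPD1, at a log2 ratio of -0.37. Of the 4 members higher in siGPR64, ARNT2 had an interval above equality in siSMPD1 and SLC2A3 one below it. ALDOC thus stood at 157 CPM in siSMPD1, 87.7 CPM in control_SMPD1, 15.7 CPM in siGPR64 and 41.4 CPM in control_GPR64. BNIP3 stood at 76.3 CPM in siSMPD1, 55.3 CPM in control_SMPD1, 21.2 CPM in siGPR64 and 51 CPM in control_GPR64. SLC2A3 showed the opposite arrangement, with 22.7 CPM in siSMPD1, 35.7 CPM in control_SMPD1, 80.3 CPM in siGPR64 and 36.7 CPM in control_GPR64. ARNT2 was above its control in both pairs, at 2.33 CPM in siSMPD1 against 0.312 CPM in control_SMPD1, and at 5.48 CPM in siGPR64 against 0.343 CPM in control_GPR64. No difference between the knockdown effects could be tested, as each rests on 1 library a side.

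**Figure D4:**
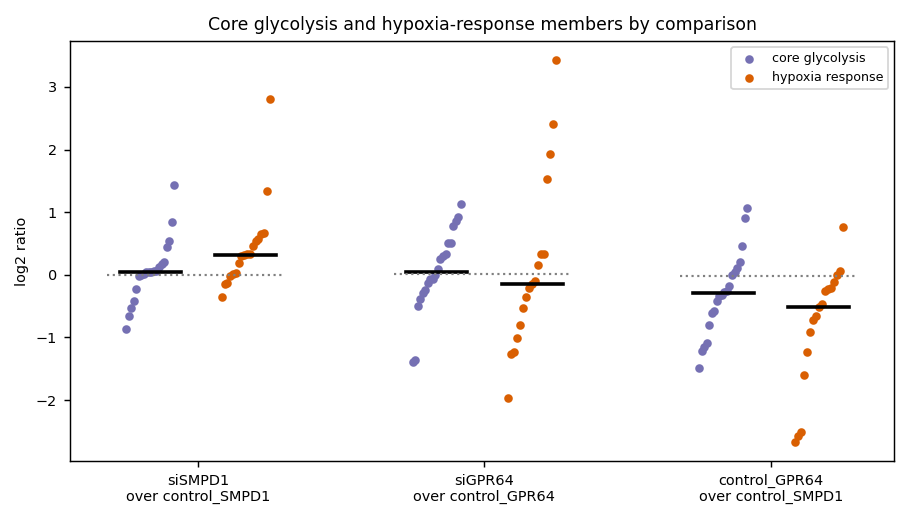
Log2 ratios of measured core glycolysis members and hypoxia-response members in siSMPD1 over control_SMPD1, siGPR64 over control_GPR64 and control_GPR64 over control_SMPD1; thick bars are medians of each set and dotted lines the median of all measured genes. The hypoxia-response median lies above the core median in siSMPD1 (0.32 and 0.05) and below it in siGPR64 (-0.14 and 0.05) and between the controls (-0.51 and -0.30).

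The control libraries, which carry the same labelled treatment, differed from each other more widely than siSMPD1 did from its control. Set as control_GPR64 over control_SMPD1, 8 of 37 measured members were lower, against 8.33% of 12798 measured genes, and 1 was higher, against 7.02%. EPAS1 and ARNT2 were not measured. The share in either direction was 24.3% of members and 15.4% of measured genes. In siGPR64 over control_GPR64 it was also 24.3% of members, and 11.7% of measured genes. By this count the siGPR64 differences were no more frequent than those between the controls. LDHA stood at 443 CPM in control_GPR64 and 1246 CPM in control_SMPD1, a log2 ratio of -1.49. Among members the ratios furthest from equality belonged to NDRG1 at -2.67, CA9 at -2.58 and ADM at -2.52, the last 2 on 2 and 3 counts in control_GPR64. ENO2, ALDOC, SLC16A3 and PFKFB4 were also lower, and PGAM1 was higher at a log2 ratio of 1.07. HIF1A had a log2 ratio of 0.06. The median log2 ratio was -0.51 over hypoxia-response members and -0.30 over core members, against -0.01 over all measured genes. Between the controls, the pair, its sequencing depth and its culture cannot be told apart.

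Shares within a gene family need no scaling between libraries, since both counts come from 1 library. They are shares of counts and not of molecules, as the lengths of the genes differ. LDHA held 54.4% (53.9 to 54.9) of LDHA and LDHB counts in siSMPD1 and 55.5% (55.1 to 56) in control_SMPD1, but 38.1% (36.8 to 39.4) in siGPR64 and 24.5% (23.3 to 25.7) in control_GPR64. Per kilobase of annotated exon its share was 38.9% in siSMPD1, 40.0% in control_SMPD1, 24.8% in siGPR64 and 14.8% in control_GPR64. By that measure LDHB was the larger in every library. The pairs thus differed more from each other than the libraries within either did. SLC2A3 held 20.5% (18.8 to 22.3) of GLUT1 and GLUT3 counts in siSMPD1 and 35.5% (33.4 to 37.7) in control_SMPD1. Its share was 60.3% (54.9 to 65.5) in siGPR64 and 36.3% (30.8 to 42) in control_GPR64. The controls overlap for this share, and the knockdown libraries lie on opposite sides of them.

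HK2 held a smaller share of hexokinase counts in each knockdown than in its control, at 15.9% (15.1 to 16.6) in siSMPD1 and 22% (21.1 to 22.8) in control_SMPD1, and 18.6% (16.5 to 20.8) in siGPR64 and 36.2% (33.2 to 39.3) in control_GPR64. ALDOC held 11.7% (11.3 to 12.1) of aldolase counts in siSMPD1 and 6.87% (6.56 to 7.19) in control_SMPD1. In the other pair its share was 1.36% (0.973 to 1.85) in siGPR64 and 4.18% (3.48 to 4.98) in control_GPR64. PFKP, the platelet-type phosphofructokinase, stayed the main isoform with 52.2% in siSMPD1, 48.2% in control_SMPD1, 49.5% in siGPR64 and 47.5% in control_GPR64. SLC16A3 held 13.7% (12.8 to 14.7) of lactate transporter counts in siSMPD1 and 7.83% (6.95 to 8.79) in control_SMPD1, with overlapping intervals in the GPR64 pair. BNIP3 held 13.6% (10.4 to 17.4) of BNIP3 and BNIP3L counts in siGPR64 and 29.9% (25.9 to 34.1) in control_GPR64, with overlapping intervals in the SMPD1 pair. HIF1A supplied 99.9% to 100% of the HIF1A and EPAS1 counts. ARNT2 made up 4.07% (2.97 to 5.43) of ARNT and ARNT2 counts in siSMPD1, against 0.442% (0.162 to 0.96) in control_SMPD1, and 9.09% (5.06 to 14.8) in siGPR64, against 0.562% (0.0142 to 3.09) in control_GPR64.

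**Figure D5:**
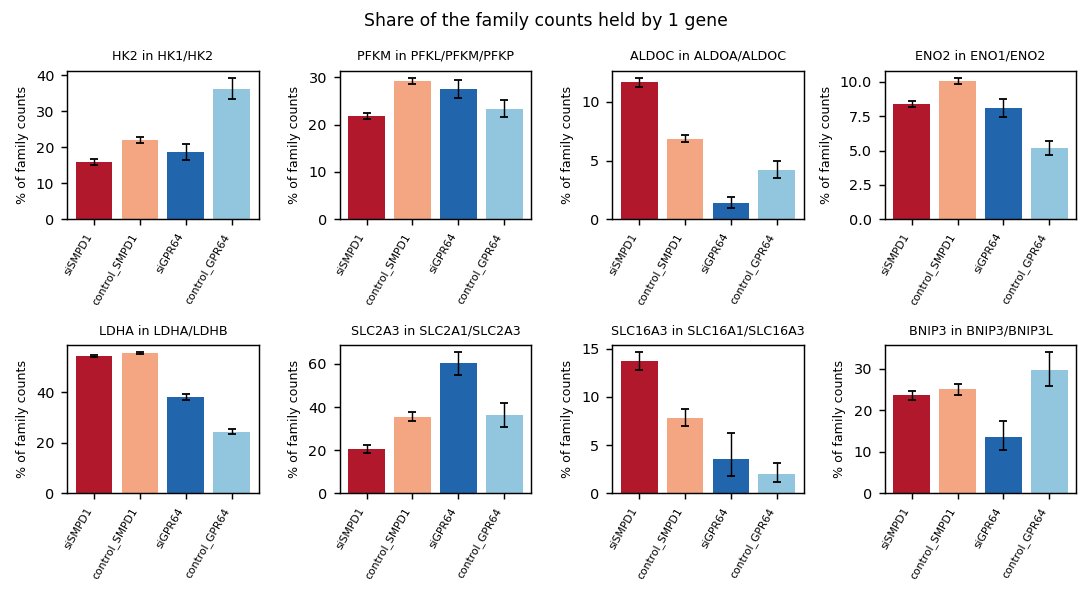
Percent of the summed counts of a gene family held by 1 gene in siSMPD1, control_SMPD1, siGPR64 and control_GPR64, with exact 95% binomial intervals. SLC2A3 is lowest in siSMPD1 and highest in siGPR64, ALDOC the reverse, and LDHA separates the pairs.

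Further genes of the pathway were read from lists named beside the members. Of 44 other hypoxia targets in the files, 38 were measured in siSMPD1, with 3 higher and 1 lower and a median log2 ratio of 0.20, where 2.49% of all measured genes were higher and 1.11% lower. Against control_GPR64, 15 of 37 were higher and 3 lower, with a median of 0.73, where 10.5% and 8.02% of all measured genes were so. BHLHE40, a transcriptional repressor, was 2.69-fold higher (2.21 to 3.29), ANGPTL4, an inhibitor of lipoprotein lipase, 2.52-fold higher (1.95 to 3.31) and PPFIA4, a liprin, 2.01-fold higher (1.71 to 2.39). VLDLR, a lipoprotein receptor, was 2.51-fold lower (2.14 to 2.97). In siGPR64 7 of 38 were higher and 4 lower, with a median of 0.27, where 6.56% and 5.18% of all measured genes were so. The sign of the median turned against control_SMPD1, to -0.23, with 4 of 39 higher and 8 lower, where 6.18% and 5.25% of all measured genes were so. HMOX1, haem oxygenase, was 8.57-fold higher (4.16 to 23.8), TFRC, the transferrin receptor, 4.68-fold higher (4.24 to 5.18), DDIT4, which restrains mTORC1, 5.55-fold lower (4.49 to 6.97) and STC2, a stanniocalcin, 3.41-fold lower (2.8 to 4.21). HMOX1 and DDIT4 are also known targets of NRF2 and ATF4. TFRC had a log2 ratio of -0.15 against control_SMPD1, so its higher level does not hold there. VEGFA, the main angiogenic HIF target and named here for that role with its values seen, did not pass the rule in either pair, at 219.8 CPM in siSMPD1, 278 CPM in control_SMPD1, 257 CPM in siGPR64 and 372 CPM in control_GPR64.

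Of 16 genes for HIF degradation and cofactors, 1 of 14 measured was higher in siSMPD1, against 2.49% of all measured genes, and none was lower, against 1.11%. It was HIF3A, an alpha subunit that can act as a HIF inhibitor, at 8.58 CPM in siSMPD1 and 3.7 CPM in control_SMPD1, 2.31-fold higher (1.75 to 3.12). VHL, also named with its values seen, stood at 57.4 CPM in siSMPD1 and 94.3 CPM in control_SMPD1, 1.64-fold lower (1.52 to 1.77). In siGPR64 none of 15 measured passed, against 11.7% of all measured genes, and the values furthest from equality were 3.37-fold higher (0.762 to 39.5) for CITED4 on 7 counts in siGPR64 and 2 in control_GPR64, and 1.9-fold lower (1.74 to 2.08) for CITED2, both competitors of HIF for the coactivator p300. Of 27 other glycolysis genes 10 were measured, with 1 higher in each knockdown and none lower. All measured genes were called in either direction at 3.6% in siSMPD1 and 11.7% in siGPR64, so the siGPR64 count lies near the share of all genes. These were the glucose transporter genes SLC2A6 in siSMPD1, 2.79-fold higher (2.12 to 3.75), and SLC2A8 in siGPR64, 2.8-fold higher (1.57 to 5.47). PKM2, the file symbol for pyruvate kinase PKM and chosen after its values were seen, stood at 2575 CPM in siSMPD1, 2542 CPM in control_SMPD1, 2389 CPM in siGPR64 and 1566 CPM in control_GPR64.

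Fits that pooled the controls as 1 scrambled-siRNA group left 1 residual degree of freedom. In them edgeR's quasi-likelihood test called none of 38 tested members at an adjusted p under 0.05 in either knockdown, as for all 13664 genes (0%). At an unadjusted p under 0.05 there were 4 members in siSMPD1 (ALDOC, PGAM1, SLC16A3 and ARNT2) and 6 in siGPR64 (ALDOC, SLC2A3, PDK1, BNIP3, P4HA1 and ARNT2), against 1.31% and 2.29% of genes. DESeq2 also called no member at an adjusted p under 0.05, where it called 0.00732% of genes in siSMPD1 and 0% in siGPR64. Its unadjusted p was under 0.05 for 3 members in siSMPD1 (1.31% of genes), the same without ARNT2, and for the same 6 in siGPR64 (1.54% of genes).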

How the data were processed

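Ribosome-depleted total RNA from 4 A673 cultures was sequenced from both ends, per the labels. Processing by the authors used bcl2fastq, TopHat2, SAMtools and HTSeq with genome build hg19, per the submitters' processing notes. Tool versions, annotation, strand setting and treatment of duplicates were not found there. Values as deposited are whole, unnormalized counts for each gene symbol. The 5 HTSeq summary lines, 36.5% to 44.8% of entries, were left out of library sizes; reads not uniquely aligned made up 20.1% to 30.1%.

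Counts were scaled with TMM factors (edgeR 4.0.16, R 4.3.3) over genes with at least 1 CPM in a library. Ratios used a prior of 0.5 count, and intervals are exact Clopper-Pearson intervals of the share of reads in 2 libraries (scipy 1.17.1). They cover counting error only, and reads without molecular identifiers are not independent molecules. Floors are 3 counts. All genes were processed and members printed. With 1 library per group the planned comparison is the rule of size; DESeq2 1.42.0 and edgeR fits with pooled controls were alternatives. The rule and the fits were run on simulated counts with counting error alone, in which the controls had the same expected shares. Such data cannot show how the rule or the fits behave where control libraries differ, as they do here. Exon lengths, overlaps and pseudogene names come from GENCODE 29 and promoters from RefSeq, both GRCh38. The counts were made on hg19, so per-kilobase levels are approximate. The members, lists and tests were chosen with earlier results of these data known. Full values are given for members past the rule, HIF subunits and paralog families, and for up to 4 genes per further list past the rule or otherwise up to 2 by size; others are marked.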

Additional observations from a re-analysis of the deposited data

How the results depend on the processing

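With the other control library, siSMPD1 had 11 members higher and 1 lower (10.5% and 8.02% of measured genes), with medians of 0.36 for core and 0.93 for hypoxia-response members. siGPR64 then had 9 members lower (5.25% of measured genes), a core median of -0.23, and a reversed log2 ratio of -1.12 for NDRG1, while SLC16A1, ADM and, in siSMPD1, ANKRD37 fell short of the rule. The cause was not tested. A minimum mean of 5 CPM left 1 member higher in siSMPD1 and 2 in siGPR64, since ARNT2, ANKRD37 and ADM lie below it. A 1.5-fold threshold gave 6 higher and 2 lower in siSMPD1, 7 higher in siGPR64, and 2 higher and 13 lower between the controls. The shares of all measured genes past the rule at the 5 CPM and 1.5-fold settings were not computed. Whether these member counts exceed them is therefore not known. Fits with pooled controls called 0 members in either direction in siSMPD1 and siGPR64. A prior of 2 counts took PDK1 under 2-fold in siGPR64, at -0.97. With summary lines in the denominator the core share was 0.797% in siSMPD1, 0.744% in control_SMPD1, 0.766% in siGPR64 and 0.717% in control_GPR64. That reverses the order of siGPR64 and control_SMPD1. Scaling by totals or by DESeq2 size factors, and no filter on low counts, changed none of the 16 named member ratios' calls. No paired analysis was possible because each group holds 1 library. Depth limits the GPR64 pair, where ADM, ARNT2, P4HA2, EGLN3 and ANKRD37 rest on 16 counts or fewer in siGPR64.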

Other observations

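Around pyruvate, PCK2, the mitochondrial phosphoenolpyruvate carboxykinase and an ATF4 target, was the single gene of 13 measured past the rule in each pair, where 3.6% of all measured genes passed in siSMPD1 and 11.7% in siGPR64. It stood at 56.3 CPM in siSMPD1, 133 CPM in control_SMPD1, 37.6 CPM in siGPR64 and 224 CPM in control_GPR64, which is 2.36-fold lower (2.2 to 2.54) in siSMPD1 and 5.92-fold lower (4.79 to 7.45) in siGPR64. The list's median log2 ratio was -0.19 in siSMPD1 and -0.23 in siGPR64, against -0.00 and 0.01 over all measured genes.

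In the pentose phosphate pathway none of 8 measured genes passed in siSMPD1 and 1 (12.5%) in siGPR64. Of all measured genes 3.6% passed in siSMPD1 and 11.7% in siGPR64, so the siGPR64 count lies near the share of all genes. In siSMPD1 TKT, transketolase, and H6PD had ratios of 1.12-fold (1.08 to 1.16) and 1.12-fold (1.0 to 1.25). TALDO1, transaldolase, the one past the rule in siGPR64, was 2.08-fold higher (1.79 to 2.43), at 188 CPM in siGPR64 and 90.1 CPM in control_GPR64, and had a log2 ratio of 0.15 against control_SMPD1. Of 13 measured glycogen genes none passed in siSMPD1 and 1 (7.69%) in siGPR64, against the same 3.6% and 11.7% of all measured genes. The glycogenin gene GYG2 and the liver phosphorylase gene PYGL lay furthest, with ratios of 1.69-fold (1.58 to 1.81) and 1.66-fold (1.51 to 1.83). In siGPR64 PPP1R3C, a glycogen-targeting phosphatase subunit, was 2.65-fold higher (1.09 to 7.92) on 17 counts in siGPR64 and 7 in control_GPR64, with a log2 ratio of -0.21 against control_SMPD1.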
